A study of Mus musculus with 9 samples.

Results

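The genes described here are 10 members of the machinery that takes a cell through G1 into S phase: the D-type cyclins Ccnd1, Ccnd2 and Ccnd3, the cyclin-dependent kinases Cdk4, Cdk6 and Cdk2, the E-type cyclins Ccne1 and Ccne2, the transcription factor E2f1 and the retinoblastoma gene Rb1. They were chosen by symbol, with earlier results of these data known. All 10 were found among the 29357 genes that carried the same name in both tables of normalized counts. RNA-seq had been run on cells sorted from the bone marrow of mice 4 to 12 weeks old, of the genotypes Spop(D/D) (knockout, KO) and Spop(+/+) (wild type, WT). LSK cells, the fraction that holds blood stem cells and multipotent progenitors, gave 2 KO and 2 WT libraries, and Ly6G-positive neutrophils gave 3 KO and 2 WT libraries. Spop encodes the substrate-binding subunit of a cullin-3 ubiquitin ligase, and the series asks about its part in the blood-forming response to inflammation. How the deletion was made, and whether libraries of a group came from separate animals, is not given in the sources used here, so every p-value rests on variation among libraries that could be technical replicates.

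Mitogens raise D-type cyclins, which bind Cdk4 or Cdk6 and phosphorylate the retinoblastoma protein. The protein then lets go of E2F factors, which switch on the E-type cyclins and the genes of DNA synthesis, and cyclin E with Cdk2 completes the step. In blood, Cdk6 is known as a kinase that lets stem cells leave quiescence, and neutrophil precursors stop dividing as they mature.

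Counted reads ran from 18827892 to 20264417 per LSK library and from 21012702 to 27434086 per neutrophil library. Levels are CPM, read counts scaled to library size with TMM factors within each population, and tests are edgeR quasi-likelihood tests with Benjamini-Hochberg adjustment over all genes of a population. Spop itself stood at 312 and 306 CPM in KO LSK cells, against 380.4 and 390.1 CPM in WT LSK cells, and at 158, 178 and 210.0 CPM in KO neutrophils, against 135 and 194 CPM in WT neutrophils. A count over the full gene is no check of the genotype labels, because exons outside the deletion may still be counted. The fall in LSK cells passed (log2 -0.32, edgeR adjusted p = 0.0118), and the difference in neutrophils did not (log2 0.15, edgeR adjusted p = 0.901). For the second KO LSK library, 1 label field names neutrophils although its title names LSK cells. No LSK library had a read of Ly6g, the gene of the neutrophil gate, and the LSK markers of that library summed to 2834 CPM. The second WT neutrophil library stood apart: its B cell markers summed to 1872 CPM, against 3.32 to 10.5 CPM in the KO neutrophil libraries and 71.8 CPM in the other WT one. Its mature neutrophil markers summed to 36912 CPM, against 213525 to 644386 CPM in KO and 208249 CPM in the other WT library.

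Promoters are shown for Ccne1 and Cdk2, which had the largest and the smallest fold change of the 10 genes in LSK cells. RefSeq windows (GRCm38.p6, 250 bases before to 50 after a gene start) were held for 6 of the members, of which Ccnd3 had a pair of windows. They were searched on both strands for the E2F consensus, spelled out as TTTCGCGC, TTTGGCGC, TTTCCCGC and TTTGCCGC, with overlapping matches counted separately. Such a word was found in 744 of 32851 promoters in the table (2.26%). Of the 6 members, Cdk2 alone held one, the reverse complement of TTTCCCGC, and the windows of the other 5 held none. The windows of E2f1 (chr2:154569377-154569676, minus strand) and Cdk6 (chr5:3343643-3343942, plus strand) lie inside the annotated genes. Those genes begin at 154569892 and 3341485, and the stretches before these starts were not searched. The Ccne1 window lies at chr7:38107441-38107740 on the minus strand and the Cdk2 window at chr10:128705002-128705301 on the minus strand, and capitals mark the E2F word.
Ccne1: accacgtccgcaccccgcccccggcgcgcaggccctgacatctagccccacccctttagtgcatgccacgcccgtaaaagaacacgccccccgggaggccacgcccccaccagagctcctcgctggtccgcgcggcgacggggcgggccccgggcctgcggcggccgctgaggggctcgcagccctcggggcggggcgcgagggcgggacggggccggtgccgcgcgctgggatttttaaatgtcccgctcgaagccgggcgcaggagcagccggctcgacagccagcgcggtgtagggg
Cdk2: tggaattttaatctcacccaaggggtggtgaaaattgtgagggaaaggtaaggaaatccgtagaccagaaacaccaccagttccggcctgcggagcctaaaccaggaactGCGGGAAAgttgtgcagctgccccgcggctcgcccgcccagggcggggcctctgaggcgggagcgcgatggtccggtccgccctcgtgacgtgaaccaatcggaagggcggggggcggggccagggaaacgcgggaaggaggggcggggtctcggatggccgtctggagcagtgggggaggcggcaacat
The absence of these letters from a window says nothing about E2F binding to the gene.

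In KO LSK cells, 6 of the 10 genes rose and 0 fell: Ccnd3, Cdk4, Cdk6, E2f1, Ccne1 and Ccne2. Over all 13008 genes tested, 21.0% rose and 21.2% fell. With upper-quartile scaling 2207 of 5652 called genes were higher, against 2738 of 5494 with TMM factors. The members' median log2 fold change was 0.35, against -0.03 over all genes. The rises were largest at the E-type cyclins, smaller at E2f1 and smallest at Ccnd3, Cdk4 and Cdk6. At an unadjusted p under 0.05 edgeR called 8 of the 10 (50.1% of all genes), and DESeq2 called the same 6 after adjustment (35.1%). The genotypes did not overlap at 9 of the 10 genes, against 72.9% of all genes, with KO higher at 6 (34.6%) and KO lower at 3 (38.3%). A fit that shares 1 spread with the neutrophil libraries kept the direction of all 6 rises and called none of them (edgeR adjusted p = 0.496 to 0.960). Bulk RNA cannot tell a change in the number of cells of a type from a change in RNA per cell, and other gene groups moved with these members. The 7 genes of the dividing-cell list, none of them at 0, summed to 1272 and 1347 CPM in KO and to 730.1 and 743.0 CPM in WT. Top2a, Birc5, Cdc20, Ccnb1, Ccnb2 and Plk1 of that list rose. Mki67 did not pass (log2 0.28, edgeR adjusted p = 0.700), and its level in the second KO library was below both WT libraries. The 5 granulocyte precursor genes, such as Elane, summed to 16003 and 18792 CPM in KO and to 1571 and 2097 CPM in WT. The 8 LSK markers summed to 2584 and 2834 CPM in KO and to 4546 and 4299 CPM in WT. Of these markers Kit, Cd34, Flt3, Hlf, Mecom and Meis1 fell. Ly6a rose (log2 0.36, edgeR adjusted p = 0.0149), and Slamf1 did not pass (log2 0.18, edgeR adjusted p = 0.572). B cell markers (9 genes) summed to 67.6 and 72.3 CPM in KO and to 232 and 218 CPM in WT. Monocyte and macrophage markers (7 genes) summed to 327 and 436 CPM in KO and to 79.9 and 102 CPM in WT. That list was split: Ccr2, Csf1r and Cx3cr1 rose (log2 3.33, 1.88 and 1.83). C1qa, C1qb and C1qc fell (log2 -4.09, -4.93 and -4.63), and Adgre1 did not pass. The sum of the T and NK cell list was also higher in both KO libraries (505 and 471 CPM, against 391 and 323 CPM in WT). Most of that sum was Nkg7, which rose (log2 0.51, edgeR adjusted p = 0.00234). Klrb1c of the same list fell (log2 -0.80, edgeR adjusted p = 0.00384), and its other genes did not pass or were not tested. The higher sum is therefore that of Nkg7 and not of the list as a whole. The MHC class II and erythroid lists were lower in both KO libraries. The part of cell makeup in the cyclin and kinase results was not tested.

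**Figure D1:**
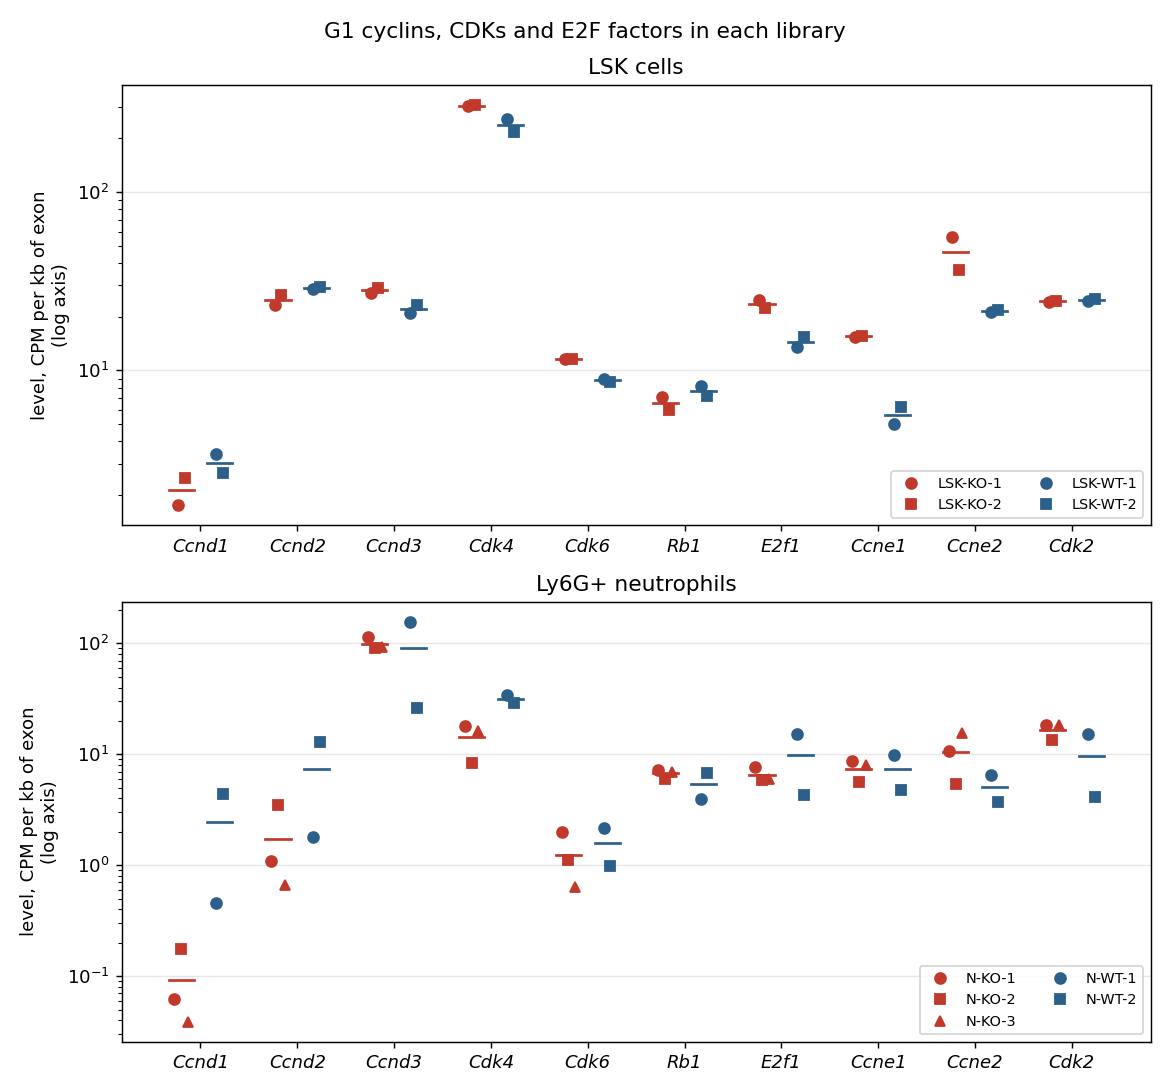
Level of each gene in each library as CPM per kb of merged exon (log axis), LSK cells above and neutrophils below, with KO in red left of WT in blue and a bar at each group's mean. Cdk4 leads in LSK cells and Ccnd3 in neutrophils, and the second WT neutrophil library lies far from the first at most genes.

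The D-type cyclins, which link growth signals to the cell cycle, did not move together. Ccnd3 lies on chromosome 17 (47505051 to 47599691, plus strand; positions are of GRCm38). Its level was 238 and 255 CPM in KO LSK cells, against 185 and 203 CPM in WT. Both KO values lay above both WT values, and the gene rose 1.27-fold (log2 0.34, SE 0.0960, edgeR adjusted p = 0.0122). The gene no longer passed when libraries were scaled by their upper quartile (adjusted p = 0.0580) or when the first WT library was left out (adjusted p = 0.155). The opposite-strand gene Bysl, which shares 4.11% of the Ccnd3 exon bases, rose as well (log2 1.05, edgeR adjusted p = 2.74e-05). Ccnd2 (chromosome 6, 127125162 to 127152193, minus strand) was at 219 and 250.2 CPM in KO and at 269.9 and 274.9 CPM in WT, which is lower in both KO libraries, yet it did not pass (log2 -0.22, SE 0.0971, edgeR adjusted p = 0.0913). With upper-quartile scaling it did (log2 -0.31, adjusted p = 0.0246), and also without the second KO library (log2 -0.31, adjusted p = 0.00988), but without the first KO library it was at -0.08 (adjusted p = 0.545). Ccnd1 (chromosome 7, 144929931 to 144939925, minus strand) was the lowest of the 3, at 8.29 and 11.7 CPM in KO and 16.0 and 12.6 CPM in WT. It did not pass either (log2 -0.52, SE 0.236, edgeR adjusted p = 0.0972), and the value hung on single libraries. It was -0.78 without the second KO library (adjusted p = 0.0158), -0.25 without the first KO library (adjusted p = 0.459) and -0.33 without the first WT library (adjusted p = 0.454). Where a library is left out of a pair, the lone one is assumed to vary like the other group. Of the Ccnd1 exon bases, 23.4% are shared with the opposite-strand gene LTO1, whose own log2 fold change was -0.57 (edgeR adjusted p = 0.0351). The library kit does not keep the strand, so reads of that stretch cannot be told apart.

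The 3 cyclins can be set against each other per length, and their order then depends on the length used. Ccnd3 made up 52.0% and 49.9% of the summed D-type cyclin level (CPM per kb of merged exon) in KO LSK cells, against 39.7% and 42.1% in WT. Ccnd2 made up 44.6% and 45.8% in KO, against 53.9% and 53.1% in WT. Ccnd1 held 3.38% and 4.28% in KO and 6.40% and 4.85% in WT. With these merged-exon lengths the highest was Ccnd3 in both KO libraries and Ccnd2 in both WT libraries. With the length of the longest transcript, Ccnd3 was the highest in all 4, at 62.6% and 60.7% in KO and 50.6% and 53.0% in WT. By either length its share was higher in both KO libraries. The mean share of Ccnd3 differed by 10.1 percentage points (51.0 ± 1.45% in KO and 40.9 ± 1.69% in WT, SD, n = 2 each). An exact two-sided permutation test gave p = 0.333, the smallest that 2 against 2 libraries allow. These shares do not depend on how libraries are scaled. The summed level was 55.1 ± 4.23 CPM per kb in KO and 54.1 ± 1.31 CPM per kb in WT (SD, n = 2 each), a difference within the spread (exact permutation p = 1).

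**Figure D2:**
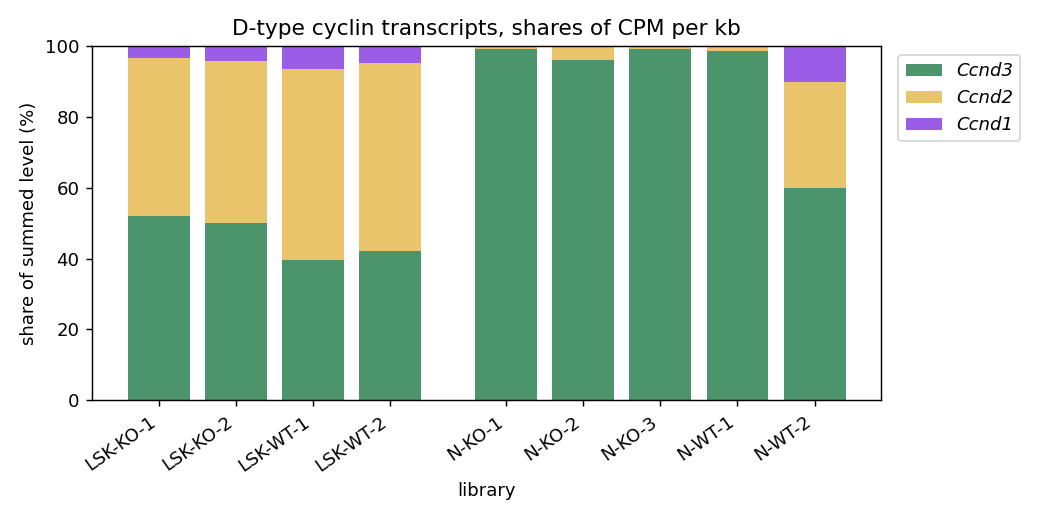
Share of each D-type cyclin in their summed level (CPM per kb of merged exon, in %) in each library, KO left of WT in each population. Ccnd3 holds 49.9% or more in the KO LSK libraries and 96.1% or more in all neutrophil libraries except the second WT one, where it holds 60.0%.

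The kinase partners of the D-type cyclins both rose by about the same amount. Cdk4 (chromosome 10, 127063534 to 127067920, plus strand) was at 984 and 1001 CPM in KO LSK cells and at 837 and 709 CPM in WT, with no overlap. It rose 1.28-fold (log2 0.36, SE 0.103, edgeR adjusted p = 0.0131), and missed the threshold with upper-quartile factors (adjusted p = 0.0560) or with the second WT library left out (log2 0.25, adjusted p = 0.225). Cdk6 (chromosome 5, 3341485 to 3531008, plus strand) was at 163.0 and 162.6 CPM in KO and at 125 and 121 CPM in WT. The KO libraries nearly coincided above both WT libraries, and the gene rose 1.33-fold (log2 0.41, SE 0.0957, edgeR adjusted p = 0.00444; 0.0593 without the second WT library). Per length, Cdk4 exceeded Cdk6 in every LSK library, by log2 4.70 and 4.73 in KO and by 4.85 and 4.66 in WT, and this ratio overlapped between the genotypes (exact permutation p = 1). Of the exon bases of Cdk4, 19.7% are shared with the opposite-strand gene Tspan31, which stood at a mean of 126 CPM in KO and 117 CPM in WT (log2 0.11, edgeR adjusted p = 0.374).

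Rb1 (chromosome 14, 73183673 to 73325822, minus strand), the substrate of these kinases and the brake on E2F, was at 42.6 and 36.0 CPM in KO LSK cells and at 49.2 and 43.1 CPM in WT. Both KO values were below both WT values, by little, and the gene did not pass (log2 -0.23, SE 0.142, 95% interval -0.54 to 0.07, edgeR adjusted p = 0.208). Leaving out each library gave -0.32 to -0.11. Opposite-strand genes share 8.11% (Rcbtb2) and 6.78% (Lpar6) of its exon bases, and both fell (log2 -0.35 and -0.65, edgeR adjusted p = 0.0232 and 0.00465). E2f1 (chromosome 2, 154559407 to 154569892, minus strand), the E2F member that drives S phase genes, was at 78.7 and 70.2 CPM in KO and at 42.4 and 48.6 CPM in WT. The groups lay well apart, and the gene rose 1.64-fold (log2 0.71, SE 0.127, edgeR adjusted p = 7.09e-04).

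The E-type cyclins, which activate Cdk2 and are themselves E2F targets, rose most. Ccne1 (chromosome 7, 38097984 to 38107534, minus strand) was at 40.8 and 41.7 CPM in KO LSK cells and at 13.2 and 16.6 CPM in WT. The KO values nearly coincided and lay far above both WT values, a 2.76-fold rise (log2 1.47, SE 0.166, edgeR adjusted p = 2.43e-05), and the size of this change exceeded that of 91.6% of genes tested. Ccne2 (chromosome 4, 11191351 to 11204779, plus strand) was at 196 and 127 CPM in KO and at 74.5 and 76.2 CPM in WT. It rose 2.14-fold (log2 1.10, SE 0.189, edgeR adjusted p = 0.00255), but the KO libraries differed widely from each other. Without the first KO library the log2 fold change was 0.79, and without the second it was 1.38. The opposite-strand gene Ints8, which shares 17.4% of the Ccne2 exon bases, had a log2 fold change of 0.49 (edgeR adjusted p = 0.00495). Per length, Ccne2 was above Ccne1 in every LSK library, and the log2 ratio of Ccne1 to Ccne2 was -1.87 and -1.22 in KO and -2.10 and -1.81 in WT, which overlap.

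Cdk2 (chromosome 10, 128697939 to 128705031, minus strand), the kinase that the E-type cyclins activate, was at 151 and 153 CPM in KO LSK cells and at 152 and 156 CPM in WT. The genotypes overlapped, and the highest library exceeded the lowest 1.03-fold. Its log2 fold change was -0.02 (SE 0.0944, 95% interval -0.22 to 0.19, edgeR adjusted p = 0.897), so the data bound any change in Cdk2 more tightly than the rise seen at its cyclins.

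**Figure D3:**
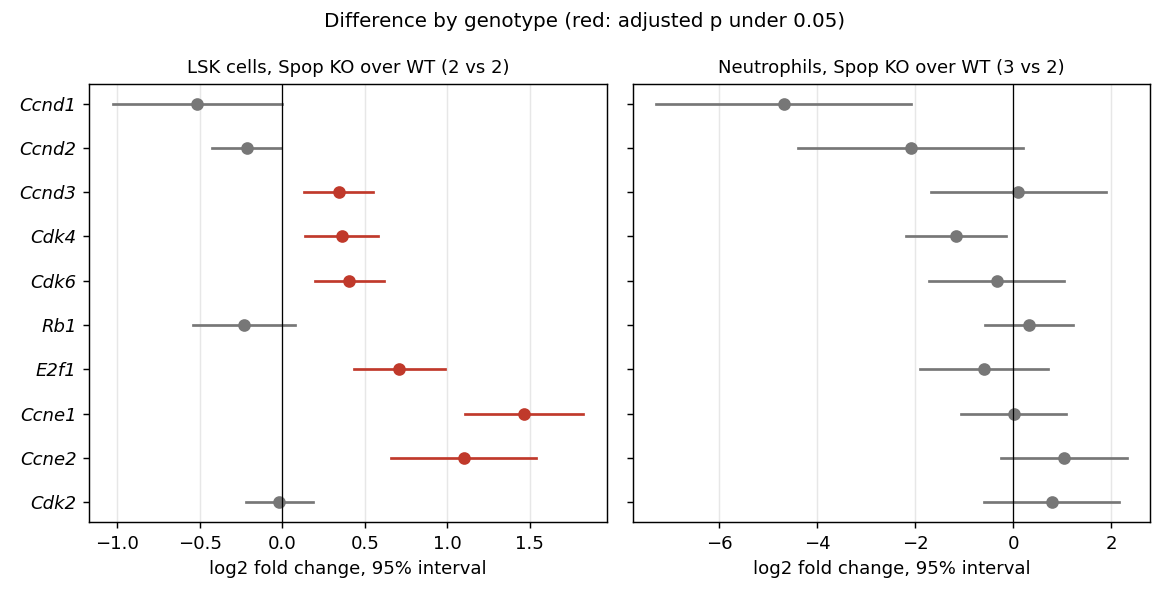
Log2 fold change of KO over WT with its 95% confidence interval for each gene, LSK cells on the left and neutrophils on the right, on axes of different range, with genes past an adjusted p of 0.05 in red. In LSK cells 6 genes lie to the right of 0 in red, and in neutrophils every gene is grey with wide intervals.

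The order of levels per length in LSK cells was led by Cdk4 in both genotypes, at 305 CPM per kb in KO and 238 in WT. In KO it was followed by Ccne2 (46.2 CPM per kb), Ccnd3 (28.1), Ccnd2 (24.9), Cdk2 (24.4), E2f1 (23.6), Ccne1 (15.5), Cdk6 (11.6), Rb1 (6.53) and Ccnd1 (2.12). The libraries of Ccnd2, Cdk2 and E2f1 overlapped there, so those 3 are not ordered. In WT the order after Cdk4 was Ccnd2 (28.9 CPM per kb), Cdk2 (24.7), Ccnd3 (22.1), Ccne2 (21.6), E2f1 (14.4), Cdk6 (8.78), Rb1 (7.68), Ccne1 (5.61) and Ccnd1 (3.04), with overlap between Ccnd3 and Ccne2. With the longest transcript as the length, the mean of Ccnd3 came second in both genotypes, ahead of Ccne2 in KO and of Cdk2 in WT. In KO the libraries of Ccne2 (42.3 to 65.3 CPM per kb) overlapped with those of Ccnd3 (61.6 to 66.0) and Cdk2 (46.3 to 46.8). Ccne2 is therefore not ordered against either by that length. By either length Ccne2 and Ccne1 stood higher in the KO order than in the WT order.

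The rest of the pathway is given from 5 lists of other genes. The lists were chosen with earlier results of these data known, so their counts are descriptions and no independent test. The 20 classical E2F target genes had a median log2 fold change of 0.94 in KO LSK cells. Of them 20 rose and 0 fell, where 21.0% of all genes rose and 21.2% fell. This held under every alternative of scaling, filter, tool and left-out library, and failed (0 rose) in a fit that shares its spread with the neutrophil libraries. Rrm2, a subunit of ribonucleotide reductase, was at 383 and 427 CPM in KO and at 129 and 126 CPM in WT (log2 1.66, SE 0.0970, edgeR adjusted p = 1.62e-07). Ccna2, the S phase cyclin that takes over Cdk2 from cyclin E, was at 269 and 296 CPM in KO and at 127 and 131 CPM in WT (log2 1.13, edgeR adjusted p = 3.03e-06). Uhrf1, which maintains DNA methylation at replication, rose 2.20-fold, and Cdc6, which loads the replicative helicase, rose 2.28-fold (edgeR adjusted p = 1.98e-06 and 4.93e-06).

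Among the other E2F factors and their DP partners, 4 of 9 rose and 1 fell, where 42.2% of all genes passed in either direction. The repressive members E2f7 and E2f8 rose 1.82-fold and 1.74-fold (edgeR adjusted p = 0.00170 and 2.35e-04), and E2f4 rose 1.25-fold. The DNA-binding partners moved apart: Tfdp1 was at 249 and 258 CPM in KO and at 168 and 152 CPM in WT (log2 0.67, edgeR adjusted p = 1.43e-04), while Tfdp2 was at 85.0 and 90.9 CPM in KO and at 133 and 145 CPM in WT (log2 -0.66, edgeR adjusted p = 2.81e-04). The activators E2f2 and E2f3 did not pass (log2 0.25 and 0.36, edgeR adjusted p = 0.288 and 0.10).

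The pocket proteins, relatives of Rb1 that hold E2F factors, were also split. Rbl2, which is known for quiescent cells, fell to 119 and 108 CPM in KO, against 173 and 189.7 CPM in WT (log2 -0.68, edgeR adjusted p = 2.08e-04). Rbl1 rose 1.29-fold (edgeR adjusted p = 0.0376). In that list, which also holds the MuvB subunits that work with pocket proteins, 3 of 7 rose and 1 fell. Over all genes 42.2% passed in either direction. The risers of the list included Lin54 (1.49-fold) and Rbbp4 (1.31-fold). Without the second WT library 1 of them still passed.

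None of the 5 CDK inhibitors that could be tested rose and 3 fell, against 21.0% and 21.2% of all genes. Cdkn1c, which encodes p57, was at 4.48 and 6.60 CPM in KO and at 18.0 and 17.3 CPM in WT (log2 -1.67, SE 0.239, edgeR adjusted p = 1.40e-04). Cdkn1b, which encodes p27, was at 3.81 and 3.67 CPM in KO and at 7.61 and 8.73 CPM in WT (log2 -1.13, edgeR adjusted p = 0.00601). Cdkn2c, an inhibitor of Cdk4 and Cdk6, fell as well (log2 -0.78, edgeR adjusted p = 0.00200), and Cdkn2d did not pass (log2 -0.24, edgeR adjusted p = 0.108). Over all genes 21.0% rose and 21.2% fell, and among genes of CDK activation and cyclin turnover 4 of 10 rose and 0 fell. They were Skp2, the F-box protein that marks p27 for degradation (1.80-fold, edgeR adjusted p = 1.30e-04), its cofactor Cks1b (1.54-fold), the phosphatase Cdc25a (1.38-fold) and the kinase chaperone Cdc37 (1.26-fold). Without the first WT library 2 genes of that list rose.

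**Figure D4:**
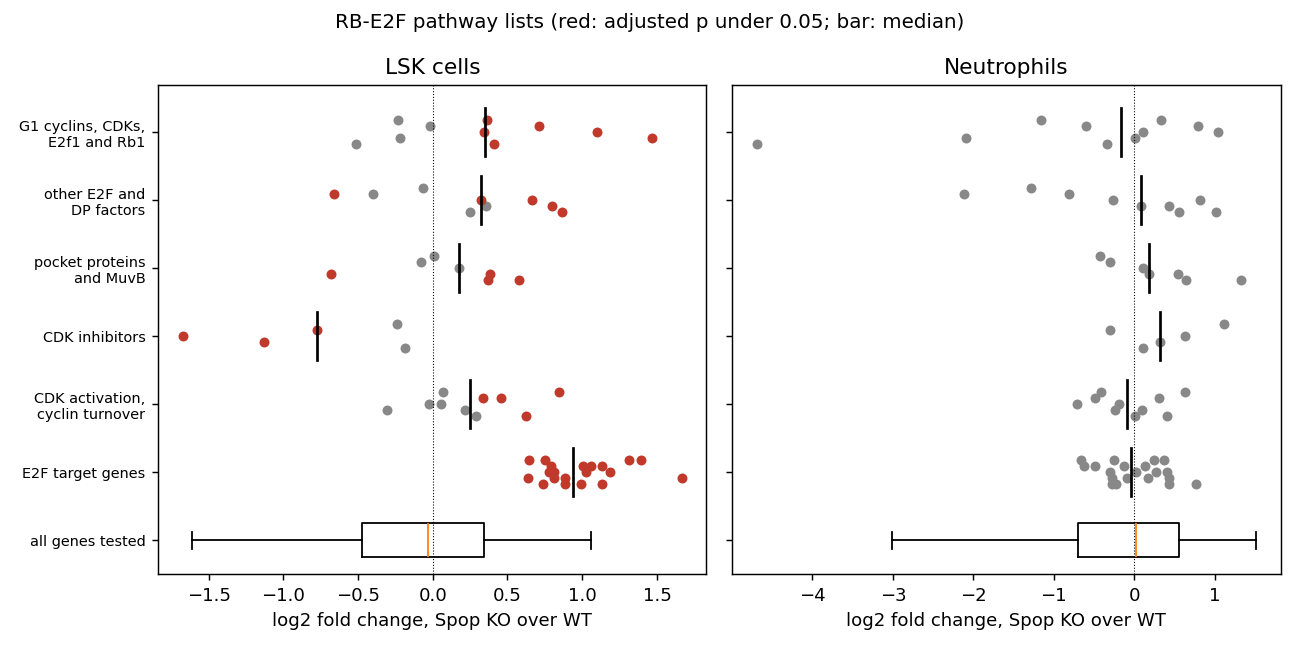
Log2 fold change of KO over WT for the genes of each pathway list in LSK cells (left) and neutrophils (right), on axes of different range, red where the adjusted p is under 0.05, with a bar at the list's median. The box of all genes tested spans the quartiles, with whiskers at the 5th and 95th percentiles. In LSK cells all 20 E2F target genes are red and right of 0, and in neutrophils no gene is red.

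E2F words were also counted in the promoter windows of these lists. Of the 17 E2F target genes with a window, 10 held a word, as did 4 of 7 other E2F and DP genes, 2 of 6 pocket protein and MuvB genes, 1 of 6 CDK inhibitors and 1 of 9 genes of CDK activation and turnover, against 2.61% of all 27025 genes with a window. A match is a description and not a binding site. The stretches around the word in 5 genes that rose are shown, each 30 bases of the gene's strand, with the word in capitals. They lie at chr17:56304117-56304146 (Uhrf1, plus), chr11:98908002-98908031 (Cdc6, plus), chr8:13338697-13338726 (Tfdp1, plus), chr10:110745230-110745259 (E2f7, plus) and chr9:109875501-109875530 (Cdc25a, plus) in GRCm38.p6.
Uhrf1: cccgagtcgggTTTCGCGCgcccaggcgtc
Cdc6: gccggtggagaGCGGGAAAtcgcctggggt
Tfdp1: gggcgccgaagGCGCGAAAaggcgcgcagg
E2f7: cccgcgtccccGCGGGAAAcgctcccgcgt
Cdc25a: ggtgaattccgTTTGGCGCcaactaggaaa

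In KO neutrophils none of the 10 genes passed, as was true of all 12836 genes tested by edgeR (0%). At an unadjusted p under 0.05 edgeR called 2 of the 10 and 1787 of all genes (13.9%), and after adjustment DESeq2 called 1 of the 10, Ccnd1, and 932 of all genes (6.72%). The genotypes did not overlap at 2 members, Ccnd1 and Cdk4, against 34.5% of all genes. KO was lower at both, as at 17.5% of all genes, and higher without overlap at 0, against 17.0%. The members' median log2 fold change was -0.16, against 0.02 over all genes. Levels are not compared with LSK cells by a test, since the populations were counted in separate tables and scaled apart.

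Ccnd3 was the D-type cyclin of neutrophils, at 993, 795 and 812 CPM in KO and at 1377 and 229.6 CPM in WT. It held 99.0%, 96.1% and 99.2% of the D-type cyclin level per length in KO neutrophils, against 98.6% and 60.0% in WT. The lone low share belongs to the WT library with the B cell markers, and the log2 fold change was 0.11 (SE 0.755, edgeR adjusted p = 0.962). It was -0.70 without that library and 1.97 without the other WT library. Ccnd2 was at 10.2, 32.6 and 6.24 CPM in KO and at 17.01 and 123 CPM in WT (log2 -2.09, edgeR adjusted p = 0.396). Without the second WT library its log2 fold change was -0.09. With the third KO library left out as well, whose erythroid genes summed to 18182 CPM against 1.94 and 34.9 CPM in the other KO libraries, it was 0.30.

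Ccnd1 lay close to the counting floor in KO neutrophils, with 8, 21 and 3 reads, against 61 and 688 reads in WT. That is 0.291, 0.830 and 0.184 CPM in KO and 2.17 and 20.8 CPM in WT, so every KO library was lower than both WT libraries. A floor of 3 reads is 0.184 CPM in the third KO library, and the fitted log2 fold change of -4.69 is no bound (SE 1.10, edgeR adjusted p = 0.214, DESeq2 adjusted p = 9.23e-04). Without the second WT library it was -2.32 (edgeR adjusted p = 0.580), and without the first WT library the gene passed (adjusted p = 0.0335). That last fit holds 1 WT library, the one with the B cell markers, and takes its spread from the KO libraries alone. The B cell list (9 of 9 genes listed, none at 0 throughout) summed to 5.10, 3.32 and 10.5 CPM in KO and to 71.8 and 1872 CPM in WT, and the T and NK cell list (8 of 8) to 97.0, 35.2 and 132 CPM in KO and to 179 and 717 CPM in WT. Ccnd1 and the B cell sum were thus both highest in the second WT library and next highest in the first. So were the T and NK cell sum and 2 further lists. MHC class II genes summed to 16.9, 42.7 and 85.5 CPM in KO and to 540 and 24882.5 CPM in WT. Monocyte and macrophage markers summed to 231, 130 and 95.1 CPM in KO and to 388 and 997 CPM in WT. The part of RNA from B cells or these other cells in the Ccnd1 result was not tested.

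Cdk4 was at 59.1, 26.9 and 52.4 CPM in KO neutrophils and at 112 and 93.4 CPM in WT. Every KO library was lower, with a log2 fold change of -1.16 (SE 0.431, 95% interval -2.18 to -0.14) that did not pass (edgeR adjusted p = 0.308). Leaving out each library in turn gave -1.41 to -0.89. The overlapping gene Tspan31 had a log2 fold change of -0.87 (edgeR adjusted p = 0.396). Cdk6 was at 27.8, 15.8 and 8.93 CPM in KO and at 30.6 and 13.7 CPM in WT, which overlap (log2 -0.34, edgeR adjusted p = 0.829).

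Rb1 was at 43.7, 36.3 and 42.0 CPM in KO neutrophils and at 23.9 and 40.8 CPM in WT (log2 0.33, edgeR adjusted p = 0.729). The ratio of its highest to its lowest library was 1.83, the smallest of the 10 genes over all 5 libraries. Without the second WT library it was still 1.83, and Cdk2 (1.36), Ccnd3 (1.73) and Ccne1 (1.78) were below it. E2f1 was at 24.4, 18.6 and 18.7 CPM in KO and at 48.6 and 13.6 CPM in WT, so that the WT libraries lay on both sides of the KO ones (log2 -0.59, edgeR adjusted p = 0.662).

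Ccne1 was at 23.0, 14.9 and 21.4 CPM in KO neutrophils and at 26.5 and 12.6 CPM in WT (log2 0.02, edgeR adjusted p = 0.992), and Ccne2 at 37.4, 18.8 and 54.1 CPM in KO and at 22.6 and 13.1 CPM in WT (log2 1.04, edgeR adjusted p = 0.442). The log2 ratio of Ccne1 to Ccne2 per length was -0.31, 0.06 and -0.95 in KO and 0.62 and 0.34 in WT, lower in every KO library (exact permutation p = 0.2, where 3 against 2 libraries allow 0.1). Cdk2 was at 114, 83.4 and 114 CPM in KO and at 94.5 and 25.4 CPM in WT (log2 0.79, edgeR adjusted p = 0.587). The log2 fold change was 0.10 without the second WT library and 2.08 without the first (adjusted p = 0.0649). It was lowest in the second WT library, where the dividing-cell list summed to 179 CPM, against 677 to 854 CPM in KO and 915 CPM in the other WT library. The 20 E2F target genes had a median log2 fold change of -0.04 in neutrophils, with 10 above 0.

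**Figure D5:**
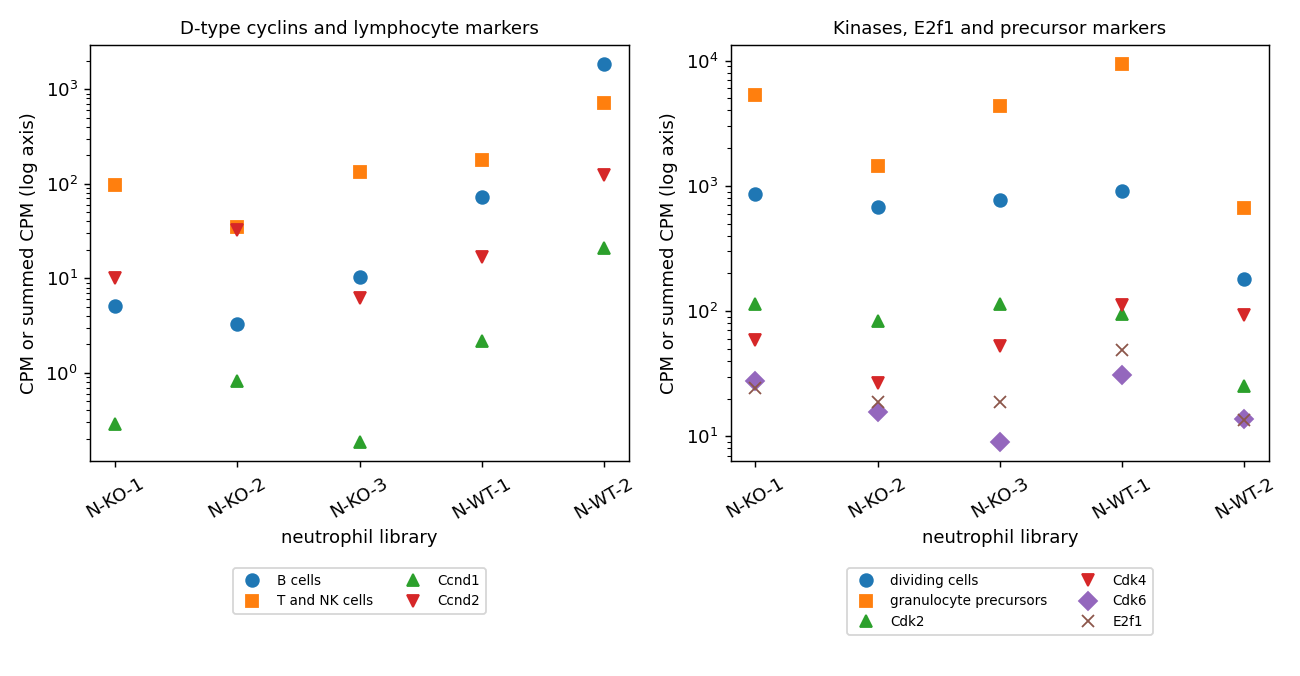
Levels in the 5 neutrophil libraries (CPM for single genes, summed CPM for marker lists, log axes), KO left of WT, with D-type cyclins and lymphocyte lists on the left and kinases, E2f1 and precursor lists on the right. The second WT library is highest for the B cell and T and NK cell lists, Ccnd1 and Ccnd2, and lowest for dividing cells, granulocyte precursors and Cdk2.

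By mean level per length, Ccnd3 led the 10 genes in neutrophils, at 98.7 ± 12.5 CPM per kb in KO (SD, n = 3) and at 157 and 26.2 CPM per kb in the WT libraries. In KO it was followed by Cdk2 (16.7 CPM per kb), Cdk4 (14.2), Ccne2 (10.5), Ccne1 (7.42), Rb1 (6.76), E2f1 (6.53), Ccnd2 (1.74), Cdk6 (1.25) and Ccnd1 (0.0923). From Cdk2 down to E2f1, and for Ccnd2 and Cdk6, each gene overlapped with its neighbour in that order. In WT, Cdk4 came second at 34.6 and 28.8 CPM per kb. All neighbours in the WT order overlapped except Cdk4 and the gene after it, E2f1.

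The difference between the genotype effects of both populations was tested directly in a fit of all 9 libraries. None of the 10 genes passed with all libraries in, and 0.0290% of the 13816 genes tested did. At an unadjusted p under 0.05 it called 3, Ccnd1, Cdk4 and Ccne1, of the 10 and 15.7% of all genes. The differences of log2 fold change, LSK cells minus neutrophils, were 4.19 for Ccnd1 (SE 1.37, edgeR adjusted p = 0.234), 1.57 for Cdk4 (SE 0.530, edgeR adjusted p = 0.236), 1.51 for Ccne1 (SE 0.564, edgeR adjusted p = 0.263) and 1.36 for E2f1 (SE 0.716, edgeR adjusted p = 0.388). Apart from that of Cdk4, these values hung on the WT neutrophil libraries. Without the first, which leaves the one with the B cell markers, Ccnd1 was at 5.01, Ccne1 at 0.81 and E2f1 at 0.10. Cdk2 was then at -2.05 and Ccnd3 at -1.58. Without the second, Ccnd1 was at 1.75. The Cdk4 difference was 1.38 without the first WT neutrophil library and 1.63 without the second. The rises of Ccne1, E2f1 and Cdk4 in LSK cells are therefore not shown to be absent from neutrophils.

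The genes most like each member were sought as those with the smallest root-mean-square distance of log2 CPM, taken as deviations from each population's mean over the 9 libraries, among 11197 genes tested in both populations. This measure follows the libraries that stand apart as well as genotype. Ccne2 lay nearest to Pclaf, a PCNA-binding factor of DNA synthesis, at a distance of 0.22, and Cdk2 lay nearest to Hjurp, the chaperone of the centromeric histone, at 0.08. E2f1 was nearest to Tubg1, a gamma-tubulin (0.13), Ccnd3 to Mlst8, a subunit of mTOR complexes (0.10), and Ccne1 to Ddx39 (0.17). Cdk4 was nearest to Tsfm, a mitochondrial translation factor (0.16). Tsfm lies on chromosome 10 at 127011572 to 127030840, 32.7 kb from Cdk4. Cdk6 was nearest to Ubap2 (0.11), Rb1 to Zdhhc20 (0.10), Ccnd2 to Abi3 (0.17) and Ccnd1 to Rhobtb1 (0.32). The next nearest were Slc35a3 for Ccne2, Gpsm2 for Cdk2, Sh2b2 for E2f1, Cep78 for Ccnd3, Tra2a for Ccne1, Pla2g12a for Cdk4, Pom121 for Cdk6, Lcorl for Rb1, Prkch for Ccnd2 and Mapk11 for Ccnd1, at distances of 0.11 to 0.33.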

How the data were processed

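RNA was purified with the RNeasy Micro Kit and amplified with the SMART-Seq v4 kit for low input, per the labels' protocols. Reads were handled with featureCounts, STAR, bcl2fastq and DESeq2 on the builds mm10 and GRCm38, per the submitters' processing notes, which give no settings here; the use of strand is not given. The authors deposited raw read counts per gene for each population, on which all tests were run. They also deposited normalized counts, a depth-scaled signal equal to the raw count divided by 1 factor per library, which served to find the genes.

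Libraries were grouped by title. Replicates differed beyond sampling noise, with a chi-square of 9.39 or more per gene in each pair. Each population was fitted with edgeR 4.0.16 in R 4.3.3, with its default expression filter, TMM factors, a robust quasi-likelihood fit and an adjusted p under 0.05. All 10 genes passed the filter in both populations. SDs are over libraries, and SEs are of log2 fold changes. The interaction joined both tables by symbol (35220 genes, 789 through an older name). Gene lengths and exon overlaps came from GENCODE M21, promoters from RefSeq. By blastn 2.17.0, the pseudogene Ccnd3-ps matched Ccnd3 over 417 bases at 96.6% identity and Gm16505 matched Cdk6 over 388 bases at 92.3%, so their reads may be split. The kit adds no molecular identifiers that the sources mention, so the 3-read floor (0.0907 to 0.184 CPM) covers counting error only.

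The genes named were the 10 members, Spop, up to 4 genes with the smallest p in LSK cells and up to 2 in neutrophils from each of 5 pathway lists, and the 2 genes nearest to each member by pattern. E2f2, E2f3, E2f4 and the genes that share exons with members were added with their values seen. The members and lists were chosen with earlier results of these data known. Alternatives were upper-quartile and DESeq2 1.42.0 size factors, no filter, DESeq2, a fit without the robust option, 1 fit of all 9 libraries, a replicate block, other gene lengths and leaving out libraries. The scripts were tested on simulated data.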

Additional observations from a re-analysis of the deposited data

Results flagged for a closer look

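Cdk4 lay higher in every KO than in every WT library in LSK cells and lower in every KO than in every WT library in neutrophils. The difference of its log2 fold changes, LSK cells minus neutrophils, was 1.57 (SE 0.530, unadjusted p = 0.0179), which did not pass after adjustment in the edgeR fit of all 9 libraries (adjusted p = 0.236; 0.155 to 0.723 when each library was left out in turn).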

How the results depend on the processing

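In LSK cells, all members kept their direction under every alternative except Cdk2, whose log2 fold change near 0 became 0.0046 with DESeq2 size factors, 0.0064 in DESeq2 and 0.0033 without a filter, and ran from -0.031 to 0.030 when each library was left out. One fit of all 9 libraries called 0 genes in LSK cells, 0 higher and 0 lower, and 0 members higher, and the cause was not tested. In the lists of other pathway genes it also called 0. Leaving out each LSK library gave 3524 to 5718 genes, 1848 to 2902 higher and 1676 to 2816 lower, with 4 to 6 members higher and 0 to 2 lower. Upper-quartile scaling gave 2207 higher of 5652 genes, 4 members higher and 1 lower. The median of all genes was then -0.12 (log2), against -0.03 with TMM factors. In neutrophils the count of 0 genes became 562 in one fit of all 9 libraries (120 higher, 442 lower), 932 in DESeq2 (252 higher, 680 lower) and 334 without a filter (76 higher, 258 lower), with 1 member lower, Ccnd1, in each. Leaving out each neutrophil library gave 0 to 601 genes, 0 to 207 higher and 0 to 394 lower, and 0 to 1 members lower, all calls coming without the first WT library. The interaction count of 4 genes became 10 without a filter and ran from 0 to 1404 when each library was left out, the highest again without the first WT neutrophil library (13 without the second WT and 7 without the third KO one). Among neutrophil log2 fold changes, Ccnd3 was -0.0091 with upper-quartile scaling. Ccne1 was -0.038 in one fit of all 9 libraries, -0.030 in DESeq2, -0.015 with its size factors, -0.010 without a filter and -0.11 with upper-quartile scaling. Left-out libraries gave ranges of -3.07 to 0.30 for Ccnd2, -0.70 to 1.97 for Ccnd3, -0.50 to 0.71 for Ccne1, -0.87 to 0.42 for Cdk6 and -1.27 to 0.66 for E2f1. For the interaction they gave -0.17 to 2.89 for Ccnd2, -1.58 to 0.998 for Ccnd3 and -0.39 to 0.46 for Ccne2. Leaving out the second WT and the third KO neutrophil library together was chosen after seeing the data. Replicate numbers were not shown to pair the libraries (correlation of deviations 0.010 in LSK cells and 0.14 in neutrophils, from 2 pairs each). With a replicate block 5776 genes passed in LSK cells with 6 members higher, and 165 in neutrophils (38 higher, 127 lower) with 1 member lower. The block gave 0 genes for the interaction, with Ccnd3 at -0.29, and Cdk6 at 0.028 in neutrophils. The KO minus WT differences of the cyclin shares moved by less than their spread under both alternative lengths, but the shares themselves moved more. The log2 ratios' differences cannot move with length. Depth limits Ccnd1 in KO neutrophils, which has 3 to 21 reads.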

Other observations

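In neutrophils the genes with the smallest p in the other pathway lists gave these values, none past the edgeR test. Lin54, a MuvB subunit, was at 42.6, 35.4 and 31.0 CPM in KO and at 18.5 and 10.5 CPM in WT (log2 1.32, adjusted p = 0.244). Cdkn2d, an inhibitor of Cdk4 and Cdk6, was at 337, 345 and 565 CPM in KO and at 285 and 97.0 CPM in WT (log2 1.12, adjusted p = 0.460). E2f6, a repressive E2F factor, was at 7.58, 2.37 and 4.22 CPM in KO and at 13.5 and 9.52 CPM in WT (log2 -1.28, adjusted p = 0.392). Rbl2 was at 37.6, 34.7 and 25.8 CPM in KO and at 21.3 and 23.4 CPM in WT (log2 0.55, adjusted p = 0.536). Lin54, Cdkn2d and Rbl2 were higher in all 3 KO libraries than in both WT libraries, as was Ambra1, which directs the degradation of D-type cyclins (27.7, 28.0 and 17.2 CPM in KO and 15.5 and 15.8 CPM in WT, log2 0.64, adjusted p = 0.511). E2f6 was lower in all 3. Over all genes tested in neutrophils, KO was higher without overlap at 17.0% and lower at 17.5%. The genes named here were taken for their small p, which favours such separation. The genotypes overlapped at E2f5, Cdkn1c, Mnat1, Cdt1 and Ccna2, whose adjusted p ran from 0.453 to 0.819.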
